A study of Homo sapiens with 9 samples.

Results

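The subject is the set of assembled loci spanning 10 kb or more, stretches of the genome that were assembled from the reads themselves and carry MSTRG identifiers, the prefix of the StringTie assembler, in place of gene symbols. A locus was a member when the distance from its first to its last base was at least 10000 bases in the deposited coordinate table. 1132 of the 2363 assembled loci met this rule, among 22295 entries of the expression table. No measured level entered the rule. The longest locus left out, MSTRG.457, spanned 9995 bases with a mean of 0.547 FPKM, and the shortest taken in, MSTRG.13944, spanned 10027 bases with a mean of 0.0529 FPKM. FPKM counts sequenced fragments relative to transcript length and to all fragments mapped in a library.

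The RNA came from U251, an established human glioblastoma cell line, in 9 libraries and 3 groups of 3. sh-Luci-3d cells were infected for 3 days with a lentivirus carrying a control sh-RNA against luciferase, and sh-Ptbp1-3d and sh-Ptbp1-7d cells were infected for 3 and 7 days with an sh-Ptbp1 lentivirus. By the study's methods the viral vector also carried an M-cherry marker, and the cells were moved 2 days after infection to a neuronal induction medium with forskolin, an activator of adenylyl cyclase, and dorsomorphin, a kinase inhibitor. No sh-Luci library of day 7 was analysed here, so in every comparison with sh-Ptbp1-7d the knockdown, the additional days and the time in this medium cannot be told apart. The labels do not say whether the 3 libraries of a group came from separate cultures, so the p-values measure the spread between libraries, which may be technical.

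Most of the symbols in the expression table belong to protein-coding genes, so loci assembled outside them are mainly long noncoding RNAs and pseudogenes. Long noncoding RNAs are spliced transcripts without a recognised protein product. Many are transcribed from the promoter of a neighbouring gene in the opposite direction, and some carry microRNA hairpins or small nucleolar RNAs in their introns. Pseudogenes are copies of genes that have usually lost the coding frame, and those that are transcribed often keep regulatory sequence of the parent. PTBP1 is an RNA-binding protein that represses splicing at pyrimidine-rich tracts and is known for holding back neuronal exons, including those of its paralog PTBP2.

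Most of the span of most members was intron. Their span had a median of 32664 bases with quartiles of 17071 and 74588 bases, and reached 1336006 bases, while the longest spliced transcript of a member had a median of 1925 bases. Exons covered a median of 6.12% of the span, with quartiles of 2.38% and 17%, and up to 100% of it in single members. Every member had at least 1 intron. The transcript with most exons had a median of 4 exons, 222 members (19.6%) had exactly 2 exons and 134 (11.8%) had 10 or more. 432 members (38.2%) were assembled as 1 transcript. The 1231 loci under 10 kb had a median of 2 exons, and 788 of them (64%) had exactly 2. Strands were used about equally, with 577 members on the plus and 555 on the minus strand. Chromosome 1 held 113 members, chromosome 7 held 81 and chromosome 9 held 71, and 14 lay on chromosome 18.

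Against GENCODE v29 on GRCh38, 829 members (73.2%) shared exon bases with an annotated gene on their strand. Another 83 overlapped a gene on their strand without sharing exon bases, 76 overlapped genes only on the opposite strand, and 144 (12.7%) overlapped no annotated gene. Of the loci under 10 kb, 407 (33.1%) overlapped none. The gene sharing most exon bases was a pseudogene for 302 members, a lincRNA (long intergenic noncoding RNA) for 280, an antisense RNA for 118, a processed transcript for 71 and a protein-coding gene for 37. The assembled structures were nevertheless only partly those of the annotation. Any shared exon base put a locus in the first class, and a median of 27.7% of a member's exon bases lay in annotated exons of its strand. A locus described as over a gene shares exon bases with it. Where a gene name stands for a member, the FPKM is that of the whole assembled locus. Every intron of 80 members was annotated, and no intron of 491 was.

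Some sequences are given ahead of the values because the results below return to them. 49 members held 70 microRNA hairpins of a RefSeq table on their own strand, a table that does not list every annotated hairpin. The first set holds mature microRNAs of host loci called at day 7 against day 3 of the knockdown, with miR-9-5p and miR-29a-3p from hosts that were not called. Sequences are from RefSeq, 5′ to 3′, and capitals mark the seed, bases 2 to 8, through which a microRNA pairs with its targets. miR-30a-5p and miR-30c-5p, which lie in the same member, have the same seed.
hsa-miR-30a-5p: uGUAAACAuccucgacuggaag
hsa-miR-30c-5p: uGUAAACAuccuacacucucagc
hsa-miR-770-5p: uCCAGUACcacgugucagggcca
hsa-miR-551b-3p: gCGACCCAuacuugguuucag
hsa-miR-873-5p: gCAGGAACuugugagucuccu
hsa-miR-876-5p: uGGAUUUCuuugugaaucacca
hsa-miR-378g: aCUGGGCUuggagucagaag
hsa-miR-9-5p: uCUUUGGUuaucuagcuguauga
hsa-miR-29a-3p: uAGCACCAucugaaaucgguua

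The second set holds 2 promoter windows, each 250 bases before to 50 bases after the RefSeq start of a gene that a member shares. 5 members called higher in sh-Ptbp1-7d began within 1000 bases of such a start, and the windows of MEG3 and PATL2 were chosen from them because they held a motif searched for. The MEG3 window is chr14:100825858-100826157 on the plus strand of GRCh38.p14, and the member MSTRG.8296 began 25 bases after the start. Capitals mark TGACGTCA, the cAMP response element, which spans positions -50 to -43 from the start. The PATL2 window is chr15:44711341-44711640 on the minus strand, and also holds the first base of B2M, which runs the other way. MSTRG.8732 began 80 bases after the PATL2 start. Capitals there mark 2 matches to the core of the interferon-stimulated response element, found on the other strand at positions 2 to 11 and 8 to 17 and overlapping each other.
MEG3 promoter: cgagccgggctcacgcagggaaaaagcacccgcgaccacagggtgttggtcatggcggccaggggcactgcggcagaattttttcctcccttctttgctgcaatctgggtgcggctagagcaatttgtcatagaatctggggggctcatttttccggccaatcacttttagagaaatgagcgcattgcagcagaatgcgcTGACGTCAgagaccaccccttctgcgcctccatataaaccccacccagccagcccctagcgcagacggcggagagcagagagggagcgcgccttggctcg
PATL2 promoter: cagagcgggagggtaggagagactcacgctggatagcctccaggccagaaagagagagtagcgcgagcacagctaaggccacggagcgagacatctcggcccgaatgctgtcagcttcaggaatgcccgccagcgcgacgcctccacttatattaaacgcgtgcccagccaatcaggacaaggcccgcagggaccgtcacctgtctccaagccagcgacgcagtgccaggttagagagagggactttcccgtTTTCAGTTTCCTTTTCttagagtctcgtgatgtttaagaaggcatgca

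Searched on both strands, TGACGTCA was in 1.85% and the interferon-stimulated response element core in 3.57% of the 35116 promoters of this length, and TATAAA, the TATA box, in 11.5%. 104 members began within 1000 bases of the RefSeq start of the gene they share, and 6, 6 and 9 of their promoters held the respective motif. Among the 5 of them called higher and the 11 called lower in sh-Ptbp1-7d compared with sh-Ptbp1-3d, TGACGTCA and TATAAA were found for MEG3 alone and the interferon-stimulated core for PATL2 alone. These matches describe letters in a window and not binding.

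The targeted gene and the cell line were checked first. PTBP1 was at 116 ± 7.58 FPKM with sh-Luci-3d (mean ± SD, n = 3, as for every ± given here), 63.9 ± 2.67 with sh-Ptbp1-3d and 50.5 ± 0.645 with sh-Ptbp1-7d. PTBP2 stood at 6.54 ± 1.68, 17.8 ± 1.34 and 27.1 ± 1.58 FPKM in the same order. The glioma and glial stem-like markers VIM (1094 to 4488 FPKM over the 9 libraries), SOX2 (94.6 to 149 FPKM) and CD44 (60.4 to 199 FPKM) were present. GFAP, the astrocyte filament, was near 0 (0.109 to 1.15 FPKM), as were PTPRC of blood cells (at most 0.0903 FPKM) and CD3E of T cells (0 in every library). The members together held 0.795% to 1.01% of the FPKM sum of a library. Without the 5 members in the region of the ribosomal RNA genes of chromosome 21 this was 0.509% to 0.659%. That region was taken by position, with 50 kb on either side of the 5.8S genes. No step of whole reads could be seen in the values, so sequencing depth is unknown and no counting interval is given.

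Levels were low. The mean over the 9 libraries had a median of 0.642 FPKM across members, 40.5% of members reached 1 FPKM and 38 reached 10 FPKM. 977 members had a mean of at least 0.1 FPKM and were tested, and the other 155 were not. Tests were made with limma on log2(FPKM + 0.1), all 9 libraries in 1 model of 15551 features, on which changes of weakly expressed loci come out too small. Adjusted p-values are Benjamini-Hochberg values over all 15551 features. For 1 locus, 3 libraries against 3 allow a smallest two-sided exact permutation p of 0.1.

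The first comparison addressed what the knockdown had done by day 3. No member was called higher or lower in sh-Ptbp1-3d against sh-Luci-3d (fold above 2 and limma FDR below 0.05), where 0.0129% of all features were called and 0.0322% passed the FDR alone. At an unadjusted p below 0.05 there were 95 members (9.72% of 977), beside 7.24% of all features. In 103 members (10.5%) the 2 groups did not overlap, beside 10.8% of all features. Of these 42 were higher and 61 lower, beside 5.86% and 4.93% of all features. The median log2 fold change was -0.059 over members and 0.010 over all features. The share at an unadjusted p below 0.05 was thus above that of all features, and the share without overlap was near it.

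The 5 members with the lowest p at day 3 had limma adjusted p-values from 0.356 to 0.401. MSTRG.11241 shares exons with AC022916.1, an antisense RNA on the other strand from SLFN5, an interferon-inducible gene of the Schlafen family. It was at 0.266, 0.716 and 0.536 FPKM with sh-Luci-3d and 1.2, 1.35 and 1.2 with sh-Ptbp1-3d. MSTRG.22514, with all 5 introns of annotated MFAP3, went the other way, with 0.885, 0.6 and 0.883 FPKM against 0.128, 0.368 and 0.163 FPKM. In both loci the groups did not overlap, and neither passed the threshold. The other 3 were MSTRG.3245 over the septin pseudogene SEPT7P9 (log2 fold change 1.08, standard error 0.241), MSTRG.945 over FOXD2-AS1 (0.62, 0.142) and the unannotated MSTRG.24943 (-1.43, 0.344). The count rests on 1 library. Without the third sh-Luci-3d library, 3 members were called higher, over AC022916.1, SEPT7P9 and AL512625.2, and 6 lower, over LYST, C4BPAP1, RNA5SP283 and RBM26-AS1 and the unannotated MSTRG.19858 and MSTRG.28931, where 0.367% of all features were called.

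At day 7 the picture was different. Against sh-Ptbp1-3d, 82 members were called higher and 69 lower in sh-Ptbp1-7d (fold above 2 and limma FDR below 0.01). This is 15.5% of the 977 tested, beside 14.2% of all features, 8.31% of them higher and 5.9% lower. The share was near the background. Under quantile normalization the same counts were 45 higher and 87 lower, with no share of all features given for that setting. The groups did not overlap in 467 members (47.8%), beside 62.3% of all features. They were 302 higher and 165 lower, beside 35.3% and 27% of all features. By the FDR alone 236 members (24.2%) passed, beside 35.8% of all features. The median log2 fold change was 0.21 over members and 0.092 over all features, and fell to 0.043 over members under quantile normalization. The loci under 10 kb gave 75 higher and 53 lower (13.5% of 950). In bulk RNA, fewer cells of a type and less RNA per cell cannot be told apart.

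Classes of position and of gene type differed in the share called and in its direction, given as a description beside the 14.2% of all features. Among tested members sharing exons with an annotated gene on their strand, 55 were higher and 44 lower (13.2% of 751). Of those overlapping a gene on their strand without shared exon bases, 9 were higher and 2 lower (17.2% of 64). Of those overlapping genes only on the opposite strand, 7 were higher and 9 lower (28.6% of 56), and of those overlapping none, 11 and 14 (23.6% of 106). Pseudogene loci were 22 higher and 4 lower (9.19% of 283), and lincRNA loci 19 higher and 25 lower (18.2% of 242). Antisense loci were 5 higher and 4 lower (8.49% of 106), and loci over protein-coding genes 4 and 4 (22.9% of 35). Span made little difference, with 16.4% called from 10 to under 20 kb, 13.6% from 20 to under 50 kb, 17.2% from 50 to under 100 kb and 15.1% from 100 kb upward.

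**Figure D1:**
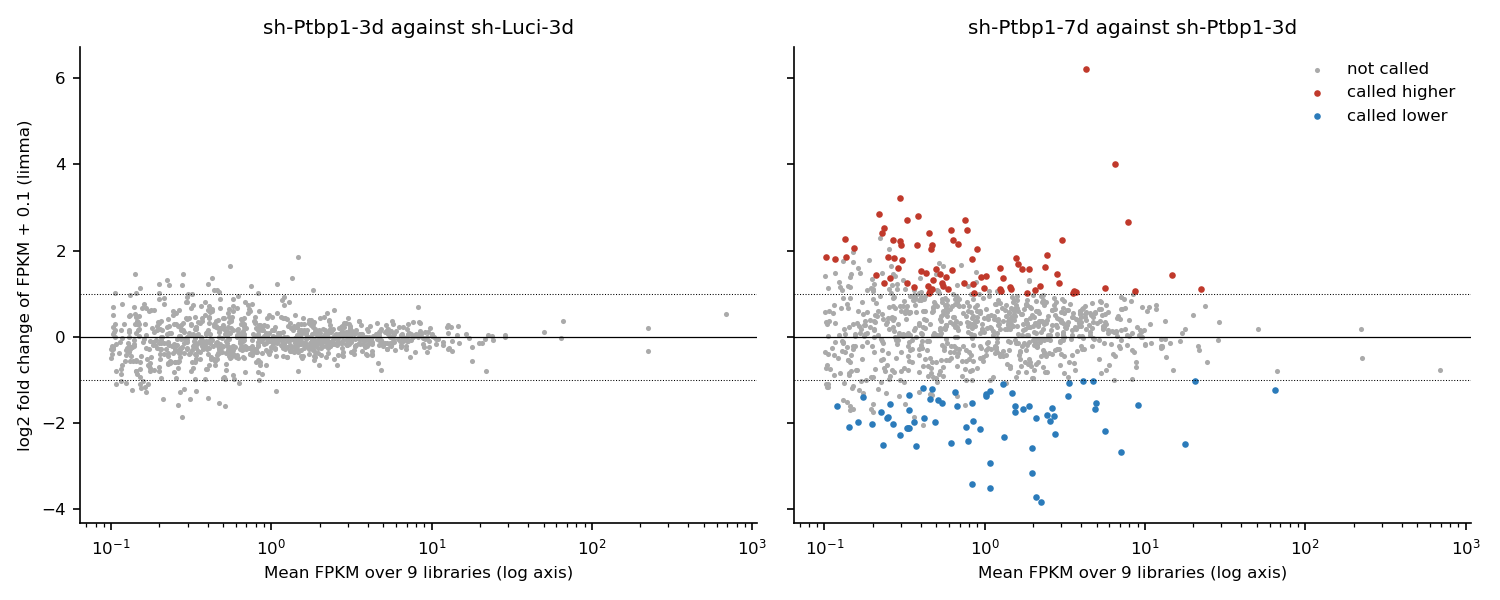
Change against level for the 977 members tested. Each point is a locus, with its mean FPKM over the 9 libraries on a log x axis and its limma log2 fold change on the y axis; dotted lines mark a fold of 2, red points were called higher and blue points lower. No point is called at day 3 (left), while 82 red and 69 blue points are called at day 7 against day 3 (right).

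The largest rise was in a pseudogene of the guanylate-binding proteins, interferon-induced GTPases of the defence against microbes. MSTRG.1265, chr1:89407581-89428158 on the plus strand, has 8 exons and shares exons with GBP1P1. It was at 0.0329, 0.0971 and 0.0793 FPKM with sh-Luci-3d, 0.0445, 0.12 and 0.0569 with sh-Ptbp1-3d and 12.7, 14.1 and 11.4 with sh-Ptbp1-7d. The day 7 libraries thus stood far above 6 libraries near 0, by 6.22 on the log2 scale (standard error 0.24, limma adjusted p = 1.96e-08). Its parent gene GBP1 had 8.42 ± 1.61 FPKM with sh-Ptbp1-3d and 78.9 ± 5.09 FPKM with sh-Ptbp1-7d. The annotated GBP1P1 transcript was 92.9% identical to GBP1 over 914 aligned bases.

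The second was a pseudogene of the class I histocompatibility genes, whose proteins present peptides to T cells. MSTRG.23205, chr6:30259569-30273964 on the plus strand, shares exons with HLA-L. It read 0.808, 1.05 and 0.714 FPKM with sh-Ptbp1-3d and 8.41, 32.7 and 12.5 FPKM with sh-Ptbp1-7d (log2 fold change 4.0, standard error 0.403, limma adjusted p = 1.56e-05). The groups were well apart, with a wide spread at day 7. How the authors assigned reads that match several copies is not given in the sources used here, so the share of these rises that belongs to the pseudogenes was not tested.

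6 members lay in the extended histocompatibility region of chromosome 6, a region named after the values were seen. Of these, 3 were called higher, beside 8.31% of all features. Beside HLA-L these were MSTRG.23194 and MSTRG.23195, the second inside the first on the same strand, over ZNRD1ASP, a pseudogene across from HLA-J and ZNRD1. MSTRG.23194 and MSTRG.23195 may share reads and may thus not be separate observations. MSTRG.23194 read 1.07, 1.27 and 0.972 FPKM at day 3 and 1.83, 6.86 and 6.47 FPKM at day 7, and the groups did not overlap. Its call was lost without the third sh-Ptbp1-3d library and without the second or the third sh-Ptbp1-7d library (limma adjusted p up to 0.0128). The call of MSTRG.23195 was lost in 7 of 20 alternatives (up to 0.0181), among them quantile normalization and those without the second or the third sh-Ptbp1-3d or the first or the second sh-Ptbp1-7d library. HCG18, in MSTRG.23203, stood at 3.24 ± 0.159 and 5.19 ± 0.769 FPKM, below a fold of 2. Genes of a list of 50 known interferon-response genes moved with these loci. 46 of the 49 tested were called higher in sh-Ptbp1-7d compared with sh-Ptbp1-3d, and 0 in sh-Ptbp1-3d compared with its control. The part of these genes in the members' rises was not tested.

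MEG3 had the highest mean over the 9 libraries among the 10 largest rises. It is an imprinted long noncoding RNA expressed from the maternal copy of its domain, and it is high in many neural tissues. MSTRG.8296, chr14:100826133-100861025 on the plus strand, has 8 exons, all 12 of its introns annotated and all its exon bases in annotated exons. It was at 3.44, 3.39 and 3.48 FPKM with sh-Luci-3d, 2.98, 2.63 and 2.42 with sh-Ptbp1-3d and 16.9, 16.7 and 18.8 with sh-Ptbp1-7d. The sh-Ptbp1-3d libraries were the lowest and those of day 7 the highest, with no overlap between any of the groups. The log2 fold change was 2.66 (standard error 0.106, limma adjusted p = 2.15e-08) between the days and -0.35 (0.106, 0.524) at day 3. DLK1, the paternally expressed coding gene of the same domain, was at 0 in 8 of the 9 libraries and at 0.203 FPKM in the other.

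The remaining 7 of the 10 largest rises were lower in level, between 0.618 and 3.03 FPKM as a mean over the libraries. MSTRG.22853 over SERPINB9P1, a relative of the granzyme inhibitor SERPINB9, was at 1.43, 1.32 and 1.18 FPKM at day 3 and 6.67, 7.27 and 5.85 FPKM at day 7. MSTRG.20282 over KLF3-AS1 was at 0.247, 0.184 and 0.35 FPKM and then at 2.25, 1.92 and 1.52 FPKM. MSTRG.21403 over LINC02100 read 0.509, 0.527 and 0.226 FPKM and then 2.11, 2.09 and 1.65 FPKM. In each of these 3 the days did not overlap, which was a condition for naming them. Their sh-Luci-3d libraries lay with or near those of sh-Ptbp1-3d. The others included MSTRG.19613 over EGFEM1P (log2 fold change 2.48, standard error 0.41) and MSTRG.7352 over RBM26-AS1 (2.25, 0.339). MSTRG.21516 overlapped OSMR-AS1 on its strand without sharing exons (2.15, 0.309), and MSTRG.19173 lay over AC092691.1 (2.70, 0.65). MSTRG.7352 stood at 0.493 ± 0.203 FPKM with sh-Luci-3d, 0.176 ± 0.0724 with sh-Ptbp1-3d and 1.23 ± 0.45 with sh-Ptbp1-7d. Against sh-Luci-3d it was not called (log2 fold change 1.17, limma adjusted p = 0.0144). MSTRG.19173 had 2 exons and a span of 732002 bases. Its call (limma adjusted p = 0.00548) was lost in 11 of 20 alternatives, 4 of which left out 1 library, with values up to 0.0399.

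Among the 10 largest falls, 6 shared exons with lincRNAs and 2 overlapped no annotated gene. MSTRG.9253 over LINC00052, chr15:87576664-87669311 on the plus strand, read 3.83, 3.46 and 2.46 FPKM with sh-Luci-3d, 3.36, 3.47 and 3.04 with sh-Ptbp1-3d and 0.143, 0.0756 and 0.226 with sh-Ptbp1-7d. The 2 groups of day 3 were alike in range and the day 7 libraries were far below them (log2 fold change -3.82, standard error 0.24, limma adjusted p = 5.02e-07). The locus with the highest level among these 10 was MSTRG.7480 over AL161431.1 on chromosome 13. Its values were 34.3, 32.3 and 22.9 FPKM with sh-Luci-3d, 21.3, 20.6 and 18.6 with sh-Ptbp1-3d and 3.77, 3.33 and 3.41 with sh-Ptbp1-7d. Here the 3 groups were ordered without overlap, and only the steps to day 7 were called (log2 fold change -2.49, standard error 0.14, limma adjusted p = 2.41e-07 between the days).

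MSTRG.2965 and MSTRG.2963 are neighbours on the minus strand of chromosome 10. MSTRG.2963 shares exons with MANCR, a long noncoding RNA named for mitosis, while MSTRG.2965 overlaps no annotated gene and has 6 exons. MSTRG.2965 fell from 2.64, 3.72 and 2.45 FPKM to 0.23, 0.136 and 0.0524 FPKM, and MSTRG.2963 from 1.23, 1.1 and 1.04 FPKM to 0.0501, 0 and 0 FPKM. Both thus fell close to 0. The unannotated MSTRG.820, with 5 exons on chromosome 1, went from 2.75, 2.3 and 2.38 FPKM to 0.256, 0.205 and 0.121 FPKM. MSTRG.4991 over MYEOV, a gene overexpressed in some myelomas, went from 1.89, 1.89 and 1.81 FPKM to 0.14, 0.15 and 0.189 FPKM. It had been at 1.17, 1.2 and 1.33 FPKM with sh-Luci-3d, below sh-Ptbp1-3d without overlap and without a call (limma adjusted p = 0.541). MSTRG.19526 over AC068985.1, MSTRG.21046 over AC005150.1, MSTRG.15498 over AC016745.1 and MSTRG.22933 over LINC02522 had log2 fold changes of -3.51, -2.67, -2.57 and -2.45. No overlap between the days was a condition for naming these 10, and 8 of the 10 shared under 50% of their exon bases with annotation.

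**Figure D2:**
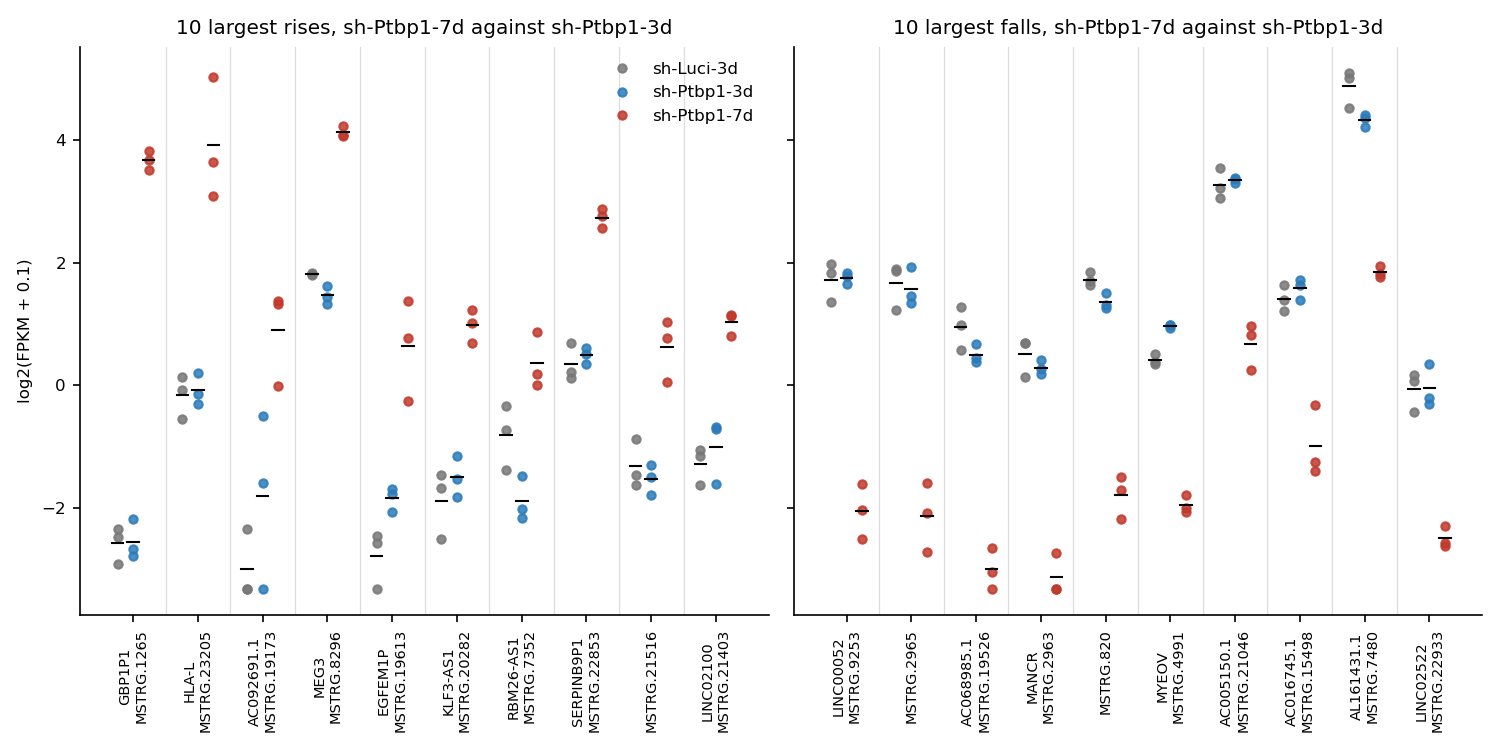
The 10 largest rises and the 10 largest falls of sh-Ptbp1-7d against sh-Ptbp1-3d among members with a mean of at least 0.5 FPKM. Each point is a library on the scale log2(FPKM + 0.1), coloured by group, and short lines are group means. Loci were picked for no overlap between sh-Ptbp1-7d (red) and sh-Ptbp1-3d, so that gap was a condition of entry. The sh-Luci-3d libraries, which had no part in the pick, also stand apart from those of day 7 in each locus. GBP1P1 shows the largest step, with a log2 fold change of 6.22.

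Some called members lay near each other, and these mostly moved the same way, a pattern described after the values were seen. No such count was made over all features, so whether it is particular to these loci was not tested. There were 22 stretches of 2 or 3 called members with gaps of at most 1 Mb, holding 49 of the 151 called members. Some stretches also held tested members that were not called. All called members were higher in 8 stretches, all were lower in 13, and 1 stretch was mixed. Counted over the 478 pairs of neighbouring tested members within this distance, 22 pairs were both called in the same direction and 1 in opposite directions, 87 had 1 called member and 368 none. 14 of the 23 pairs with both called were on the same strand, so assembly of 1 transcript in pieces may be counted among them and was not tested.

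5 of these stretches held 3 called members. On chromosome 4, 3 neighbours in chr4:123982718-124651920 fell together. MSTRG.20836, with only 0.232% of its exon bases in AC121154.1, went from 7.89, 8.8 and 5.12 FPKM at day 3 to 1.43, 1.89 and 1.19 FPKM at day 7. MSTRG.20840, on the opposite strand, went from 3.98, 3.94 and 3.83 FPKM to 0.674, 0.872 and 0.71 FPKM. MSTRG.20843, near ANKRD50, changed by -1.54 on the log2 scale (standard error 0.308, limma adjusted p = 0.00182). None of the day 7 libraries reached the values of day 3 in these loci. On chromosome 10, LINC00707 (MSTRG.3014) went from 6.5, 6.26 and 5.54 FPKM to 1.83, 2.03 and 2.33 FPKM and LINP1 (MSTRG.3011), an RNA studied in the repair of DNA breaks, from 5.04, 4.14 and 2.49 FPKM to 1.87, 1.71 and 1.63 FPKM. Their unannotated neighbour MSTRG.2998 was listed at 0 in the 3 day 7 libraries. On chromosome 15, MSTRG.9246 and MSTRG.9248 fell with LINC00052, and MSTRG.9246 was listed at 0 at day 7. The 2 stretches of higher members were both on chromosome 6, the histocompatibility one above and one over BTN2A3P, a butyrophilin pseudogene, with MSTRG.23115 and ZNF204P (MSTRG.23124).

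Several of these calls were lost when a single library was left out, which also leaves fewer libraries in its group. That of LINP1 was lost in 5 of 21 alternatives, among them TPM and those without the first or the second sh-Ptbp1-3d library. MSTRG.2998 lost its call in 4 of 20 (limma adjusted p up to 0.0146), among them those without the first or the third sh-Ptbp1-3d or the third sh-Ptbp1-7d library. MSTRG.9246 lost it in 3 of 20 (up to 0.0317), 1 of them without the first sh-Ptbp1-3d library, and MSTRG.9248 in 6 of 20 (up to 0.0176), among them those without the first or the third sh-Ptbp1-3d or the first or the second sh-Ptbp1-7d library. On chromosome 6, BTN2A3P lost its call in 3 of 21, among them quantile normalization and the one without the third sh-Ptbp1-3d library. ZNF204P lost it in 6 of 20 (up to 0.0199), among them those without the first or the second sh-Ptbp1-3d or the third sh-Ptbp1-7d library. MSTRG.20843 and MSTRG.23115 lost their calls with a pseudocount of 1 alone. The calls of MSTRG.20836, MSTRG.20840 and LINC00707 were kept in all 21.

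A further question was whether a locus changed together with the annotated gene that starts next to it in the other direction. 229 members began within 1000 bases of such a head-to-head start, and in 152 pairs both sides were tested. The median distance between the starts was 118 bases. Across these pairs Pearson's r of the 2 log2 fold changes was 0.417 and Spearman's rho 0.295, as a description over pairs that share the same 6 libraries. The signs were the same in 93 pairs (61.2%). The locus was called in 14 pairs (9.21%) and the gene in 20 (13.2%), both below the 14.2% of all features. Both were called in 7, which is 50% of the loci called and 35% of the genes called. The libraries' strand protocol is not given in the sources used here, so reads of transcripts that overlap on opposite strands cannot be told apart.

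Of the 7 pairs, 4 fell on both sides, 2 rose on both and 1 was opposite. SOCS2, an inhibitor of cytokine signalling, and MSTRG.6477 over SOCS2-AS1 start 48 bases apart. The locus went from 3.44, 3.39 and 2.84 FPKM to 0.79, 0.828 and 0.93 FPKM, and SOCS2 from 64.2 ± 2.71 to 18.7 ± 1.56 FPKM (SD, n = 3). The log2 fold changes were -1.80 (standard error 0.154) and -1.78 (0.0785). FOXF1, a transcription factor of mesenchyme, and the long noncoding RNA FENDRR in MSTRG.10504 both rose. FENDRR read 0.279, 0.427 and 0.129 FPKM and then 1.33, 1.05 and 0.652 FPKM, and FOXF1 2.36 ± 0.234 and 7.44 ± 0.569 FPKM, log2 fold changes of 1.58 (0.343) and 1.62 (0.128). The call of FENDRR was lost in 4 of 20 alternatives (limma adjusted p up to 0.0159), among them those without the third sh-Ptbp1-3d or the first or the second sh-Ptbp1-7d library. The falls also included MSTRG.1046 over HSD52 beside FGGY, a carbohydrate kinase gene (-1.21 and -1.28). The call of MSTRG.1046 was lost in 11 of 20 alternatives (up to 0.0351), 5 of which left out 1 library, the second sh-Luci-3d, the first or the second sh-Ptbp1-3d or the first or the third sh-Ptbp1-7d. MSTRG.1147, which overlaps RPL31P12 on its strand without sharing exon bases, and the unannotated MSTRG.2675 were listed at 0 in the 3 day 7 libraries. MSTRG.1147 lay beside NEGR1, a neuronal adhesion molecule (1.99 ± 0.0725 to 0.44 ± 0.0427 FPKM). MSTRG.2675 lay beside WNT9A, a Wnt ligand (1.1 ± 0.0939 to 0.373 ± 0.0643 FPKM). MSTRG.2675 lost its call in 8 of 20 alternatives (up to 0.0735), among them those without the first or the third sh-Ptbp1-3d or any 1 sh-Ptbp1-7d library.

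The PATL2 and B2M pair is the one whose shared promoter is printed above. B2M, the light chain of class I histocompatibility proteins, went from 636 ± 31.8 to 5651 ± 434 FPKM. MSTRG.8732, which starts 177 bases away over PATL2, read 0, 0.209 and 0 FPKM at day 3 and 0.379, 0.867 and 0.614 FPKM at day 7. Its level per length was far below that of B2M, and its call (limma adjusted p = 0.0061) was lost in 10 of 20 alternatives (up to 0.0281), among them those without the first or the third sh-Ptbp1-3d or the second or the third sh-Ptbp1-7d library. It was the only member that overlapped or started head to head with a gene of the interferon list.

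The ZFAS1 locus and ZNFX1 went in opposite directions. All 5 introns of the locus were annotated, but only 9.79% of its exon bases lay in annotated exons of its strand. ZFAS1, a host of small nucleolar RNAs, lies in MSTRG.16972, chr20:49278646-49289260 on the plus strand, 220 bases from the start of ZNFX1, an interferon-inducible sensor of double-stranded RNA. The locus was at 77.4, 81.5 and 81.1 FPKM with sh-Luci-3d, 76.2, 76.4 and 85.6 with sh-Ptbp1-3d and 31.3, 34.4 and 36.4 with sh-Ptbp1-7d. ZNFX1 was at 22.9 ± 4.84, 20.6 ± 2.32 and 76.4 ± 6.7 FPKM. Both steps were called, with log2 fold changes of -1.22 (standard error 0.0814, limma adjusted p = 7.66e-07) and 1.89 (0.142, 1.85e-06). In the 20 pairs with 1 side called, the signs were the same in 16 and opposite in 4. TRIB2 rose from 10.3 ± 0.888 to 58.5 ± 1.82 FPKM, while its neighbour MSTRG.14588 had a log2 fold change of 1.65 and missed the threshold (limma adjusted p = 0.0166). MVD, an enzyme of sterol synthesis, had a log2 fold change of -1.96 beside 0.25 of MSTRG.10554, and HPCAL1 one of -1.24 beside 0.74 of MSTRG.14563. GLDC, of the glycine cleavage system, was at -1.99 beside -0.30 of MSTRG.27152. In the pair of KLF10 the locus was called instead, with -1.60 for MSTRG.26736 and -0.12 for the gene.

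**Figure D3:**
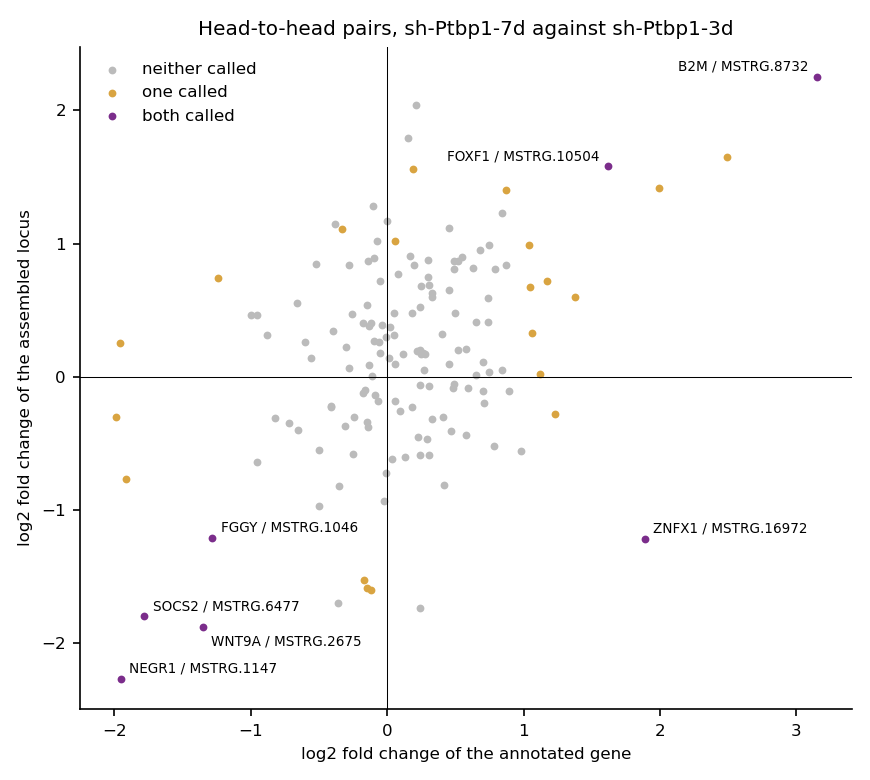
Head-to-head pairs of an assembled locus and an annotated gene that start within 1000 bases of each other. Each of the 152 points gives the limma log2 fold change of the gene (x) and of the locus (y) in sh-Ptbp1-7d compared with sh-Ptbp1-3d; pairs with both sides called are purple and named. 6 of the 7 named pairs lie in the quadrants of equal sign, and ZNFX1 with MSTRG.16972 lies at the lower right.

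Loci that overlap a measured gene on the opposite strand showed less of this, without a test of the difference. These include loci that also overlap a gene on their own strand. In 65 such pairs r was 0.139, the locus was called in 8 (12.3%), and 1 pair was called in the same and 1 in the opposite direction. In 30 pairs that shared exons on the same strand, r was 0.228 and 6 loci (20%) were called, with 2 pairs called in the same and 1 in the opposite direction. Of all features 14.2% were called.

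Of the 49 members that hold microRNA hairpins, 48 were tested and 6 were called higher and 3 lower in sh-Ptbp1-7d compared with sh-Ptbp1-3d (18.8%, beside 14.2% of all features). Only the host RNA was measured, and the microRNAs printed above were not. LINC00472, the host of MIR30A and MIR30C2 in MSTRG.23660, was at 4.78, 4.41 and 3.04 FPKM with sh-Luci-3d, 4.16, 4.65 and 4.02 with sh-Ptbp1-3d and 1.8, 1.79 and 1.28 with sh-Ptbp1-7d. The day 7 libraries were below all others (log2 fold change -1.36, standard error 0.188, limma adjusted p = 0.000155). ZNRF2P2, with MIR550A3, had a log2 fold change of -1.01 (0.106), and its call was lost in 5 of 21 alternatives, among them TPM and those without the first sh-Ptbp1-3d or the third sh-Ptbp1-7d library. The third was MSTRG.17251, over MIR6724-2 in the ribosomal RNA region (-1.57, 0.219), with a mean of 9.08 FPKM. The same hairpin also lies in MSTRG.17249, which had a mean of 223 FPKM and was not called (0.18, 0.215).

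The 6 hosts that rose were MEG3 with MIR770, EGFEM1P with MIR551B, SERPINB9P1 with MIR4645, SLC44A3-AS1 with MIR378G, MSTRG.27293 with MIR873 and MIR876, and AC126755.1 with MIR6511A4. MSTRG.27293 spans 410393 bases of chromosome 9 without sharing exons with an annotated gene, and went from 0.321, 0.265 and 0.268 FPKM to 1.2, 0.976 and 0.746 FPKM. AC126755.1, a duplicated pseudogene on chromosome 16 in MSTRG.9768, went from 9.83, 9.81 and 9.08 FPKM to 29, 26.1 and 23.7 FPKM. SLC44A3-AS1 read 0.359, 0.476 and 0.232 FPKM and then 1.24, 1.32 and 1.07 FPKM. In all 3 the days did not overlap.

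Several hosts of abundant microRNAs were not called. LINC00461 is the host of the neural microRNA gene MIR9-2 and had a mean of 50.5 FPKM. It read 41, 44.8 and 49.4 FPKM with sh-Luci-3d, 57.6, 34.4 and 59.2 with sh-Ptbp1-3d and 59.8, 62.8 and 45.7 with sh-Ptbp1-7d, and all groups overlapped (log2 fold change 0.18 between the days, standard error 0.195). MSTRG.25663, which shares exons with LINC-PINT and AC016831.6 and holds MIR29A and MIR29B1, had a log2 fold change of 0.17 (0.155). MIRLET7BHG with MIRLET7B and MIRLET7A3 had one of -0.25 (0.125) and MIR99AHG with MIR99A and MIRLET7C one of 0.19 (0.12). For DLEU2 with MIR15A and MIR16-1 it was -0.36 (0.281).

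The most abundant members lay in the region of the ribosomal RNA genes of chromosome 21. Of the 3 given here, only MSTRG.17249 shares exon bases with such a gene, RNA5-8SN2. MSTRG.17250 had a mean of 691 FPKM, with 569, 470.0 and 858 FPKM with sh-Luci-3d, 1151, 689 and 887 with sh-Ptbp1-3d and 469, 471 and 657 with sh-Ptbp1-7d. MSTRG.17253 and MSTRG.17249 had means of 225 and 223 FPKM. Libraries of 1 group differed widely here, and none of these 3 loci was called between any groups. NEAT1, the RNA scaffold of the nuclear bodies called paraspeckles, followed in MSTRG.4848. It was at 64.9 ± 5.69 FPKM with sh-Luci-3d, 84.6 ± 14.3 with sh-Ptbp1-3d and 49.2 ± 7.97 with sh-Ptbp1-7d. The days did not overlap, and the change (log2 fold change -0.78, standard error 0.144, limma adjusted p = 0.00113) was below a fold of 2.

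The 5 members with the largest span, each of at least 1004940 bases, were duplicated regions or sparse transcripts. MSTRG.16699 over FRG1BP, the longest, had 9 exons and 5.87 ± 0.418, 7.34 ± 1.04 and 8.17 ± 0.345 FPKM in the 3 groups. MSTRG.17238, MSTRG.21707 over GTF2H2B, and MSTRG.3877 over LINC01435 had log2 fold changes between the days of 0.045, 0.23 and 0.72, none called. MSTRG.24561 over AC011287.1 was under 0.1 FPKM and not tested. The members with most exons were pseudogenes of large genes and a small nucleolar RNA host. MSTRG.1598 over AC241952.1 had 45 exons and went from 8.79 ± 0.26 to 13.4 ± 0.995 FPKM, and MSTRG.8439 over HERC2P2 had 37 exons and went from 16.9 ± 1.14 to 24.3 ± 2.92 FPKM, both below a fold of 2. SNHG14, the imprinted host of the SNORD116 cluster in MSTRG.8458, had 43 exons and 69 transcripts. Its levels were 16.3 ± 1.01, 17.1 ± 2.2 and 16.1 ± 2.65 FPKM, less apart than the libraries of a group. MSTRG.5663 over DDX12P (41 exons) and MSTRG.16812 over FER1L4 (38 exons) had log2 fold changes of -0.65 and 0.48.

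A list of 30 well-studied long noncoding RNAs was looked up as a whole. 10 of them had members, in 11 loci, 6 had loci under 10 kb and 1 had a row by symbol. The MEG3 locus was called higher and the ZFAS1 locus lower in sh-Ptbp1-7d compared with sh-Ptbp1-3d, and the other 9 loci were not called. The median log2 fold change of the 11 was 0.037, beside 0.092 over all features. Of those not called, CYTOR (MSTRG.15217) was at 7.19 ± 0.279 and 9.55 ± 0.865 FPKM in the 2 groups, JPX (MSTRG.28970) at 3.68 ± 0.578 and 5.07 ± 0.343 FPKM, SNHG5 (MSTRG.23774) at 5.87 ± 0.492 and 5.36 ± 0.123 FPKM and CRNDE (MSTRG.10120) at 2.66 ± 0.625 and 2.06 ± 0.306 FPKM.

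Against sh-Luci-3d, 84 members were called higher and 70 lower in sh-Ptbp1-7d (15.8% of 977), beside 14.6% of all features, 8.93% higher and 5.68% lower, and 35.6% of all features passed the FDR alone. Groups did not overlap in 55.9% of all features, 32.8% higher and 23.1% lower, and in 46.8% of members. Under quantile normalization there were 58 higher and 102 lower, with no share of all features given for that setting. The median log2 fold change was 0.15 over members and 0.099 over all features, and turned to -0.033 over members under quantile normalization. This comparison shares the sh-Ptbp1-7d libraries with the one before it, and 115 members were called in the same direction in both, 57 higher and 58 lower.

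Some members differed from sh-Luci-3d more than from sh-Ptbp1-3d. MSTRG.2783 shares 13.1% of its exon bases with LYST, a gene of lysosome traffic, and none of its 6 introns is annotated. It stepped down at each stage, with 1.9, 2.05 and 1.01 FPKM with sh-Luci-3d, 0.646, 0.822 and 0.787 with sh-Ptbp1-3d and 0.137, 0.0983 and 0.125 with sh-Ptbp1-7d. The log2 fold change was -0.99 at day 3 (standard error 0.269, limma adjusted p = 0.474) and -2.94 from sh-Luci-3d to sh-Ptbp1-7d (0.269, 7.58e-06). With all libraries only the later steps were called. Without the third sh-Luci-3d library it was called at day 3 too (-1.29, limma adjusted p = 0.0145). MSTRG.19932, on the opposite strand from the pseudogene AC024560.2 on chromosome 3, was at 0.327, 1 and 0.158 FPKM with sh-Luci-3d, 2.17, 1.71 and 1.32 with sh-Ptbp1-3d and 1.98, 3.09 and 1.41 with sh-Ptbp1-7d. Both knockdown groups were above the control, and the call held for sh-Ptbp1-7d alone (log2 fold change 2.12, standard error 0.463, limma adjusted p = 0.00307), and was lost in 4 of 21 alternatives, among them those without the first or the second sh-Ptbp1-7d or the first sh-Luci-3d library (up to 0.0151). CASC15 (MSTRG.23032) rose from 0.268 ± 0.232 to 1.47 ± 0.188 FPKM. Its call was lost in 5 of 20 alternatives (up to 0.023), among them those without the first or the second sh-Ptbp1-7d library. LINC00639 (MSTRG.7785) fell from 1.93 ± 0.135 to 0.26 ± 0.0305 FPKM. MSTRG.11707, with 12.7% of its exon bases in TOB1-AS1, fell from 1.46 ± 0.418 to 0.19 ± 0.104 FPKM.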

How the data were processed

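Per the labels, total RNA of U251 cells was extracted with TRIzol and sequenced on Illumina in 9 libraries, and the submitters' processing notes name HISAT2 and GRCh38. Deposited by the authors were FPKM values of each gene in every library and the coordinates of the assembled loci, from which span, exons and strand were read. Settings of the aligner, the assembler and the quantification are not given in the sources used here. Groups were taken from the sample titles. Loci were compared with GENCODE 29, and sequences were taken from RefSeq tables. log2(FPKM + 0.1) of the 15551 features with a mean of at least 0.1 FPKM entered limma 3.58.1 (R 4.3.3). A single linear model held the 3 groups, the variance prior followed mean level, and the Benjamini-Hochberg adjustment ran over these features. The script was tested on simulated data. Transcripts were compared with BLAST+ 2.17.0, and tables and figures were made with pandas 2.3.3 and matplotlib 3.10.9 in Python 3.11.15.

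Thresholds were a fold above 2 with an FDR below 0.05 at day 3 and below 0.01 for sh-Ptbp1-7d. The study's methods give these for the day 3 comparison and for sh-Ptbp1-7d with sh-Ptbp1-3d, and the second was carried over here to sh-Ptbp1-7d with sh-Luci-3d. Named by rule were, in each comparison with sh-Ptbp1-7d, the 10 largest rises and falls among called members averaging 0.5 FPKM or more whose groups did not overlap, at day 3 the 5 lowest p-values, and the 5 members highest in span, exons and mean. The members, lists and rules were chosen with earlier results of these data known. Loci in head-to-head pairs, in neighbouring stretches, in the histocompatibility region and with microRNAs were named after their values were seen. Alternatives were pseudocounts of 1 and 0.01, either no filter or one at 1 FPKM, scaling to TPM, by median ratios or by quantiles, fits of the compared groups alone, a flat variance prior, a block for the replicate number, assembled loci alone and each library left out. Leaving out the loci in the region of the ribosomal RNA genes, with each library rescaled, was added after seeing the data. The search for pyrimidine-rich tracts before splice sites was not run, because no genome sequence was used here.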

Additional observations from a re-analysis of the deposited data

How the results depend on the processing

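The counts of called members depended most on how low values were treated. With a pseudocount of 1, the day 7 libraries had 17 members higher and 23 lower than sh-Ptbp1-3d, and 24 and 27 than sh-Luci-3d. With a mean of at least 1 FPKM these counts were 29 and 34, and 35 and 36. Quantile normalization gave 45 higher and 87 lower against sh-Ptbp1-3d, and a fit of assembled loci alone 53 and 56. The median log2 fold change of all features moved by 0.10 under TPM and by -0.10 under quantile normalization between the days. Leaving out each library in turn gave 56 to 86 higher and 56 to 71 lower against sh-Ptbp1-3d, 64 to 82 higher and 60 to 74 lower against sh-Luci-3d, and 0 to 3 higher and 0 to 6 lower at day 3, where the calls came from leaving out the third sh-Luci-3d library alone. With the replicate number as a block, 73 were higher and 67 lower against sh-Ptbp1-3d, 81 and 68 against sh-Luci-3d, and 0 at day 3. Same-numbered libraries did not deviate together (r from -0.0317 to 0.0512), so the number was not taken as a pairing. Without the loci in the region of the ribosomal RNA genes, 100 were higher and 62 lower against sh-Ptbp1-3d. Of the loci named by rule with a call, 17 of 25 kept it against sh-Ptbp1-3d and 20 of 28 against sh-Luci-3d in every alternative run. Of the 25 called loci named outside the rule, 7 kept the call against sh-Ptbp1-3d, which makes 24 of 50 in all. No log2 fold change of a named called locus changed sign. Where a count moved, the cause was not tested beyond what the setting itself removes. Shares of all features called are not given for these settings, except at day 3 without the third sh-Luci-3d library. Whether a count moved more for members than for all features was therefore not tested.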
